A study of Mus musculus with 7 samples.

Results

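Peroxisomes shorten fatty acids that mitochondria handle poorly, such as very long, branched and dicarboxylic chains and the side chains of bile acid precursors. The acyl-CoA is imported by an ABC transporter, oxidised by an acyl-CoA oxidase, hydrated and dehydrogenated by a bifunctional enzyme and cleaved by a thiolase, and the organelle itself is built and divided by peroxins. Several of these genes are classical targets of PPARα, the nuclear receptor whose activation in rodent liver leads to peroxisome proliferation. The members described here are 9 genes of this pathway, of 14795 genes in the expression table: the importer Abcd3, the oxidase Acox2, the bifunctional enzymes Ehhadh and Hsd17b4, the thiolases Acaa1a, Acaa1b and Scp2, and the peroxins Pex11a and Pex19. They were chosen by symbol, with earlier results of these data known, and all 9 were found.

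RNA-seq of whole duodenum compared 3 Ppara lox/lox mice with 4 Ppara I-KO mice, all male, labelled C57BL/6 (predominantly C57BL6/J per the methods of the study) and, per those methods, on a high-fat diet (HFD). Both groups carry the floxed Ppara alleles, and only the I-KO mice carry Villin-Cre, which acts in the intestinal epithelium, so muscle, immune and other non-epithelial cells keep Ppara. Per the labels the mice had 6 h without food and 6 h of refeeding before sacrifice at midnight. The methods of the study instead give a fast before sacrifice where nothing else is specified, and mention no refeeding of these mice. Each library is 1 biological replicate, and the libraries hold an estimated 20745155 to 25865823 reads on the listed genes. Values are counts scaled to library size (CPM), and values of single libraries are given in the order of the replicate numbers. Log2 fold changes are I-KO minus lox/lox on the log2(CPM + 1) scale, with a standard error (SE) and a p-value from limma adjusted over the 13399 genes tested, and a gene is called at an adjusted p below 0.05.

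The targeted gene Ppara, on chromosome 15, was at 53.4, 49.3 and 63.2 CPM in the lox/lox libraries, and I-KO replicates 1 to 3 gave 33.0, 40.6 and 47.5 CPM. The library labelled I-KO replicate 4 had 69.9 CPM, above every lox/lox library. Exons that Cre leaves in place and non-epithelial cells both add reads to this total, which is therefore no check of the deletion. Results of members that rest on this library are also given without it. All 10 enterocyte markers were measured, with summed levels of 27267 to 31616 CPM in lox/lox and 27032 to 32677 CPM in I-KO duodena. The 16 pancreatic acinar markers in the table summed to 2453 to 3198 CPM in lox/lox and 2412 to 4249 CPM in I-KO, of which Zg16, also a product of intestinal goblet cells, made up 2372 to 3788 CPM. All 6 acinar markers tested had a higher mean in I-KO (median difference 0.20 on the log2 scale), and 0 were called. The other 10 were above 1 CPM in fewer than 3 libraries and so were not tested. Their sum reached 334 CPM in I-KO replicate 1 and 56.9 CPM in lox/lox replicate 2, and the other libraries held 0.30 to 2.95 CPM. Hepatocyte markers, of which 5 of 10 were in the table, summed to at most 8.68 CPM in any library. Adipocyte markers summed to 138 to 145 CPM in lox/lox and 121 to 159 CPM in I-KO, smooth muscle markers to 1154 to 1427 and 1188 to 1667 CPM, and B and T cell markers to 3251 to 4534 and 2685 to 4421 CPM. In whole tissue, fewer cells of a type and less RNA per cell cannot be told apart.

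The sequences printed next carry the comparisons that follow: a stretch that separates the paired thiolases and the upstream sequences of Acaa1b and Pex11a, the members with the largest differences between the groups. Acaa1a (chr9:119339676-119350299, plus strand) and Acaa1b (chr9:119148023-119157093, minus strand) lie 182582 bases apart in GRCm38. Their coding sequences, of 1275 bases each, are 96.5% identical, with 44 differing bases. Below are coding bases 433 to 552, counted from the A of the start codon, in the GENCODE transcripts Acaa1a-201 and Acaa1b-201. Capitals mark the 14 positions at which the copies differ, which are the letters that assign a read to one copy.
Acaa1a: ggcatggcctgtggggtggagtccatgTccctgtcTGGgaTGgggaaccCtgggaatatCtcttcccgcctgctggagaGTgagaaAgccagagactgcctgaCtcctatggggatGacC
Acaa1b: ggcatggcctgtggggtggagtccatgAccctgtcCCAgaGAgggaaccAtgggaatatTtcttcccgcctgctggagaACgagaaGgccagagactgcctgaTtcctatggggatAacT

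Outside such stretches the copies can be identical over as many as 327 bases. Of all 100-base stretches, the length of a read, 360 occur in both genes, which is 7.21% of those of Acaa1a and 19.3% of those of Acaa1b. Reads from these stretches cannot be assigned, and how they were counted is not given in the sources used here.

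The 250 bases before the annotated start of Acaa1b (chr9:119157094-119157343, minus strand) and of Pex11a (chr7:79743132-79743381, minus strand) are shown 5′ to 3′ on the gene's strand, from RefSeq, GRCm38.p6. Capitals mark CCAAT boxes, here on the opposite strand, where they read ATTGG.
Acaa1b: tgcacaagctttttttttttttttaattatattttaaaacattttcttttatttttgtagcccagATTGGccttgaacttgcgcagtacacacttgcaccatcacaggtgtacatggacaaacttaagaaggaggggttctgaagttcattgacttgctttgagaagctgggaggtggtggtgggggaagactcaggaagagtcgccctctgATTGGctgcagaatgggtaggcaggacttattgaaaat
Pex11a: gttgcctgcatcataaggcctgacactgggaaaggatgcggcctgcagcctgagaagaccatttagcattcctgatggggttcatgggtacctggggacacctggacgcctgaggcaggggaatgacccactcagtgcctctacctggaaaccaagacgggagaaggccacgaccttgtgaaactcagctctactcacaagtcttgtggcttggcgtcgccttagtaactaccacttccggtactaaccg

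The Acaa1b sequence has 41.6% G and C and holds a CCAAT box 185 and another 38 bases before the start, and the Pex11a sequence has 55.6% G and C and holds none. Of 32851 promoter windows in the table, 33.8% hold CCAAT on either strand before the start. Among the other members, the Acaa1a window holds 3 such boxes, the Ehhadh window 1, at 38 bases as in Acaa1b, and 1 of the Acox2 windows 1. The Scp2 and Abcd3 windows hold none. PPARα binds DNA with RXR at a direct repeat of AGGTCA spaced by 1 base. Letters matching AGGTCANAGGTCA exactly on either strand occur in 13 windows (0.0396%), counted over 250 bases before and 50 bases after the start. None of the member windows holds them. At so low a share, absence from these few windows carries no information, and sequence outside the windows was not searched. With up to 2 mismatches the letters occur in 3.86% of windows and, among the members, in 1 of the Acox2 windows. The single motif AGGTCA, in 16.3% of windows, occurs among the members in the Scp2 window only, and that window lies 26451 bases from the start of Scp2 in GENCODE. The Acaa1a window lies 1618 bases from its GENCODE start. Windows were found for 7 of the 9 members, Hsd17b4 and Pex19 being the others.

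All 9 members were above 9 CPM in every library, so each passed the filter on low values in both groups. By limma 0 of the 9 were called, beside 0.0299% of all genes tested. At an unadjusted p below 0.05, 3 members were lower in I-KO and 0 were higher, beside 2.42% and 2.32% of all genes. The 3 were Acaa1b, Pex11a and Abcd3. In these members every I-KO library lay below every lox/lox library, which was so for 3.28% of all genes, and in 0 members did every I-KO library lie above every lox/lox library, as in 2.91% of all genes. The members were chosen with earlier results of these data known, so these shares are a description only. The median log2 fold change of the 9 members was -0.02, and that of all genes tested was 0.00. Over the alternative fits the median of the members lay between -0.08, without lox/lox replicate 2, and -0.02.

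**Figure D1:**
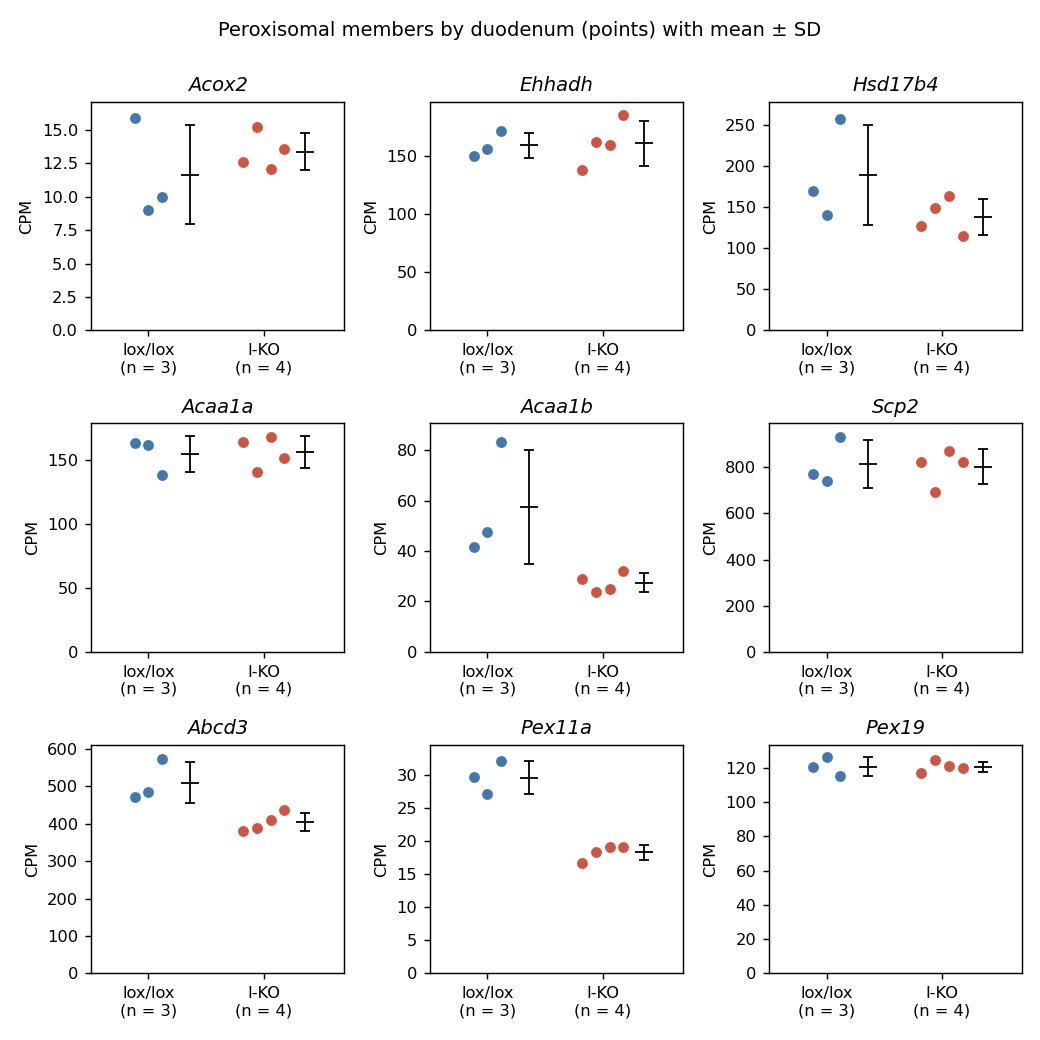
Each panel plots 1 member's level in CPM (vertical axis, from 0) in 3 lox/lox and 4 I-KO duodena as points, with the group mean and SD as the bar beside them. The groups are separate in Acaa1b, Abcd3 and Pex11a and overlap in the other 6 panels.

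Abcd3 (chr3:121758774-121815302, ATP-binding cassette subfamily D), also known as PMP70, imports branched-chain and dicarboxylic acyl-CoAs and is an abundant protein of the peroxisomal membrane. It was at 472, 484 and 572 CPM in the lox/lox libraries, against 381, 390.0, 411 and 437 CPM in the I-KO libraries. The highest I-KO value thus lay below the lowest lox/lox value. The means were 509.5 ± 54.6 CPM (SD, n = 3) and 405 ± 25.0 CPM (SD, n = 4), or 20.6% less in I-KO, and the log2 fold change was -0.33 (SE 0.10, adjusted p = 0.830 from limma, exact two-sided permutation p = 0.0286). That permutation p is the smallest that the 35 ways of choosing 3 of 7 libraries allow. It was the same for Acaa1b and Pex11a, and it is not adjusted over the members. For the other members the exact two-sided permutation p lay between 0.171 (Hsd17b4) and 0.943 (Scp2 and Pex19). Without lox/lox replicate 3, the highest library, the log2 fold change was -0.24, without I-KO replicate 1 it was -0.30, and without the library labelled I-KO replicate 4 it was -0.37.

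Among the paralogs of Abcd3, Abcd4, a lysosomal cobalamin transporter, averaged 24.8 ± 0.61 CPM (SD, n = 3) in lox/lox against 26.2 ± 1.19 CPM (SD, n = 4) in I-KO libraries (log2 fold change 0.08, interval from -0.10 to 0.25). Abcd2 was below the filter, with 0.20 to 0.70 CPM, which is 4 to 17 reads a library.

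Acyl-CoA oxidases carry out the first and rate-limiting step of the spiral and release hydrogen peroxide. Acox2 (chr14:8225511-8259353), which oxidises branched chains and bile acid intermediates, was at 15.9, 9.05 and 9.98 CPM in the lox/lox libraries, against 12.6, 15.2, 12.1 and 13.6 CPM in the I-KO libraries. The highest and the lowest value were both in the lox/lox group, and the log2 fold change was 0.22 (SE 0.17, adjusted p = 0.954 from limma) with a 95% interval from -0.17 to 0.61. Without lox/lox replicate 1 it was 0.45, and without lox/lox replicate 2 it was 0.07. This was the shallowest member, with 211 to 388 estimated reads a library, where counting error alone is 6.89% at 211 reads.

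For Acox3, the other branched-chain oxidase, the log2 fold change was 0.11 with an interval from -0.13 to 0.34 (92.6 ± 7.40 CPM, SD, n = 3, against 99.9 ± 9.87 CPM, SD, n = 4). On the scale of CPM per kb of exon, the lox/lox means were 8.04 for Acox3 and 3.14 for Acox2.

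The hydration and dehydrogenation steps are shared by a pair of bifunctional enzymes of unrelated sequence and opposite stereochemistry. Ehhadh (chr16:21761287-21787807), the L-bifunctional enzyme, was at 149.8, 156 and 171 CPM in the lox/lox libraries, against 138, 162, 159 and 185 CPM in the I-KO libraries. The I-KO libraries spanned the whole lox/lox range, and the log2 fold change was 0.01 (SE 0.11, adjusted p = 0.997 from limma) with an interval from -0.24 to 0.26. A change of more than 0.26 on the log2 scale in either direction is therefore outside the 95% interval for this gene, which is a textbook PPARα target in liver.

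Hsd17b4 (chromosome 18), the D-bifunctional enzyme, was at 169, 140.1 and 258 CPM in the lox/lox libraries, against 126, 149, 163 and 114 CPM in the I-KO libraries. A single lox/lox library stood above all others. The log2 fold change was -0.41 (SE 0.20, adjusted p = 0.954 from limma), with an interval from -0.88 to 0.05. Without lox/lox replicate 3 it was -0.17. The ratio of Ehhadh to Hsd17b4 within a library, on the log2((CPM + 1)/(CPM + 1)) scale, was -0.18, 0.15 and -0.59 in lox/lox and 0.12, 0.12, -0.04 and 0.69 in I-KO duodena. The groups overlapped, and the difference of 0.43 had an exact two-sided permutation p of 0.200, likewise 0.200 after Benjamini-Hochberg adjustment over the 3 ratios computed. It was 0.27 without the library labelled I-KO replicate 4 and 0.23 without lox/lox replicate 3.

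Thiolases release acetyl-CoA or propionyl-CoA at the end of each turn. The thiolase that humans have as 1 gene is present as a pair in the mouse. Acaa1a was at 163, 162 and 138 CPM in the lox/lox libraries, against 164, 140.3, 168 and 151 CPM in the I-KO libraries. The ranges lay over each other, with a log2 fold change of 0.02 (SE 0.10, adjusted p = 0.996 from limma) and an interval from -0.21 to 0.24. A part of Acaa1a of 290 exonic bases (6.57% of its exonic length) also belongs to Myd88 on the opposite strand, which had 32.1 to 41.0 CPM. The library kit keeps strand, but the strand setting of the count is not given in the sources used here.

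Acaa1b was at 41.5, 47.7 and 83.3 CPM in the lox/lox libraries, against 28.9, 23.9, 24.7 and 32.0 CPM in the I-KO libraries. All I-KO libraries lay below all lox/lox libraries, and lox/lox replicate 3 stood well above the rest. The means were 57.5 ± 22.6 CPM (SD, n = 3) and 27.4 ± 3.80 CPM (SD, n = 4), or 52.3% less in I-KO, the largest difference among the members. The log2 fold change was -0.99 (SE 0.22, 95% interval from -1.48 to -0.49), with an adjusted p of 0.581 from limma and an exact two-sided permutation p of 0.0286. Without lox/lox replicate 3 it was -0.69, without I-KO replicate 1, where the acinar markers were highest, -1.01, and without the library labelled I-KO replicate 4 -1.06. Over all the fits tried the adjusted p from limma lay between 0.299 and 1.00. Acaa1b shares 224 exonic bases with Dlec1 on the opposite strand.

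Set against its neighbouring copy in the same library, Acaa1b stood at 25.5%, 29.5% and 60.4% of the Acaa1a level in CPM, not scaled to length, in the lox/lox libraries, and at 17.7%, 17.0%, 14.7% and 21.2% in the I-KO libraries. The log2 ratio was -1.47 ± 0.66 (SD, n = 3) in lox/lox and -2.47 ± 0.21 (SD, n = 4) in I-KO, without overlap. The difference was -1.002. Since the Acaa1a levels of the groups overlapped, with a log2 fold change of 0.02, this ratio restates the difference of Acaa1b and is given as a description, with no test of its own. Without lox/lox replicate 3 the difference was -0.63. How a read that could belong to either copy was counted is not given, so its effect on the terms of this ratio is unknown.

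**Figure D2:**
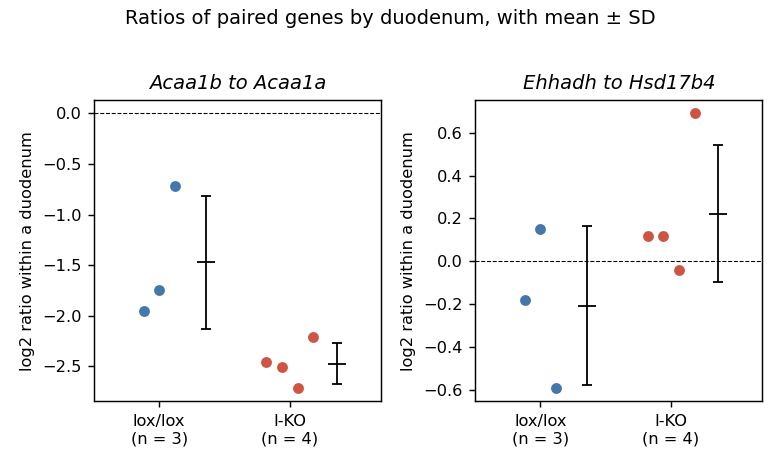
Each panel plots a log2 ratio of the CPM + 1 of paired genes within a duodenum (vertical axis), with 3 lox/lox and 4 I-KO points and the mean and SD beside them; the dashed line marks equal values. The I-KO points lie below all lox/lox points for Acaa1b to Acaa1a and overlap them for Ehhadh to Hsd17b4.

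Scp2 (chr4:108043839-108144998) encodes both a thiolase for branched chains and bile acid precursors and sterol carrier protein 2. It was at 770, 738 and 931 CPM in the lox/lox libraries, against 822, 692, 872 and 824 CPM in the I-KO libraries. The groups overlapped, with a log2 fold change of -0.02 (SE 0.11, adjusted p = 0.996 from limma) and an interval from -0.28 to 0.24. Of its 100-base stretches, 21.8% also occur in the pseudogene Scp2-ps2, so part of its reads may have been left out or shared.

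Pex11 proteins elongate and divide peroxisomes, and Pex11a is the isoform induced by peroxisome proliferators in liver. Pex11a (chr7:79735957-79743131) was at 29.7, 27.1 and 32.1 CPM in the lox/lox libraries, against 16.7, 18.3, 19.1 and 19.1 CPM in the I-KO libraries. The gap between the groups was wider than the range within either of them. The means were 29.6 ± 2.52 CPM (SD, n = 3) and 18.3 ± 1.16 CPM (SD, n = 4), or 38.2% less in I-KO. The log2 fold change was -0.66 (SE 0.09, 95% interval from -0.87 to -0.46), with an exact two-sided permutation p of 0.0286.

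Pex11a ranked 5 of 13399 genes by the limma p-value but was not called (adjusted p = 0.116 from limma). With an intensity trend and a robust fit its adjusted p was 0.0466, beside 0.0672% of all genes called, and with sample quality weights it was 0.0487, beside 0.0896%. Over all the fits tried the adjusted p lay between 0.0466 and 0.484. Without the library labelled I-KO replicate 4 the log2 fold change was -0.68, without I-KO replicate 1 -0.62 and without lox/lox replicate 3 -0.61. The lowest library held 348 estimated reads of Pex11a, with a counting error of 5.36%. Plin1, an adipocyte gene that did not pass the filter on low values, lies 3053 bases from Pex11a. The adipocyte marker sums given above overlapped between the groups. Whether adipocyte content or this neighbour bears on the Pex11a difference was not tested.

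Pex11g, another isoform of the family, listed under its older symbol Pex11c, had 15.8 to 17.9 CPM in lox/lox and 17.1 to 21.2 CPM in I-KO, with a log2 fold change of 0.18 and an interval from -0.04 to 0.41.

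Pex19 (chr1:172126755-172136493), the cytosolic chaperone that carries new membrane proteins, Pex11 proteins included, to the peroxisome, was the steadiest member. It was at 120.4, 127 and 115 CPM in the lox/lox libraries, against 117, 124, 121 and 120.0 CPM in the I-KO libraries. The means were 120.8 ± 5.58 CPM (SD, n = 3) and 120.5 ± 3.08 CPM (SD, n = 4), with an interval of the log2 fold change from -0.17 to 0.17.

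**Figure D3:**
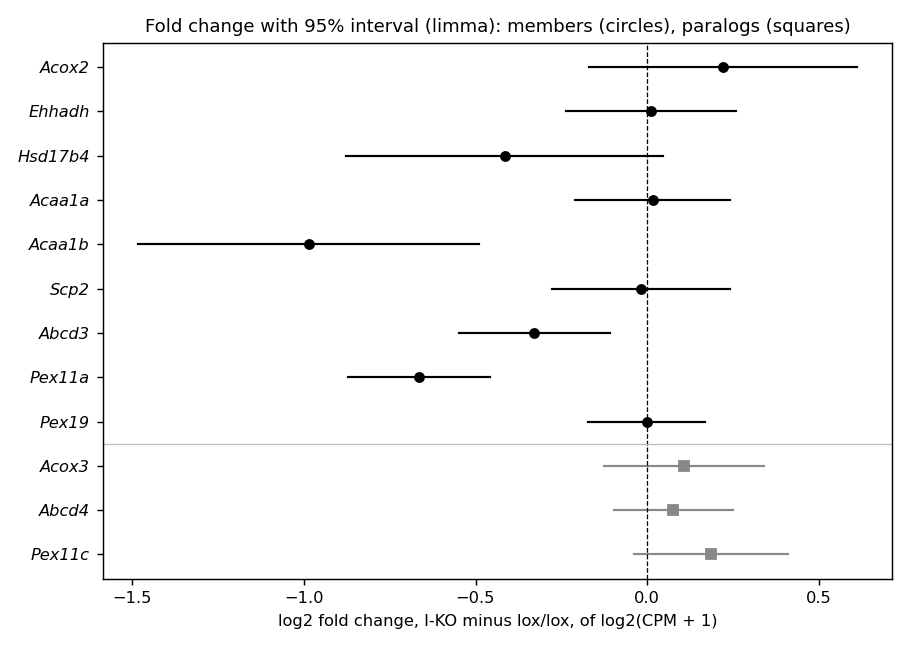
Log2 fold change of log2(CPM + 1), I-KO minus lox/lox, on the horizontal axis, with the 95% interval from limma as a line, for the 9 members (black circles) and 3 tested paralogs (grey squares). The intervals of Acaa1b (-1.48 to -0.49), Pex11a (-0.87 to -0.46) and Abcd3 (-0.55 to -0.11) lie below 0 before adjustment over all genes, and those of the other members and of the paralogs hold 0.

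Per kb of exon, the members covered a wide range of levels in lox/lox duodena. Scp2 stood first with a mean of 234 CPM per kb (212 to 268), followed by Abcd3 at 77.3 (71.6 to 86.8). Hsd17b4 at 55.5 (41.2 to 75.7) and Ehhadh at 53.3 (50.3 to 57.4) came next, and the range of Hsd17b4 overlapped those of its neighbours on either side. Acaa1a at 34.9, Pex19 at 31.7 (30.2 to 33.2) and Acaa1b at 29.3 (21.2 to 42.5) did not separate from each other. Pex11a at 9.31 (8.51 to 10.1) and Acox2 at 3.14 (2.44 to 4.29) closed the order, each apart from the next.

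In I-KO duodena the order on that scale differed in the places of Hsd17b4 and Ehhadh, at 40.6 and 54.0 CPM per kb, whose ranges overlapped in both groups. Acaa1b stood at 14.0 CPM per kb (12.2 to 16.3), clear of Pex19 at 31.6 (30.6 to 32.6), whereas in lox/lox duodena it could not be told from it. Pex11a was at 5.76 CPM per kb (5.24 to 6.02). The exonic length joins all annotated isoforms, so these levels assume that no isoform dominates.

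Libraries differed among themselves. Lox/lox replicate 3 held the highest value of 5 of the 9 members, namely Hsd17b4, Acaa1b, Scp2, Abcd3 and Pex11a, and the lowest value of Acaa1a and Pex19. I-KO replicate 1 held the lowest value of 3 members.

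By a rule that excluded members and listed peroxisomal genes, the genes whose log2(CPM + 1) values followed those of Acaa1b most closely over the 7 libraries were Cyp4a10 (Pearson's r = 0.98), Retsat (0.98), 2810006K23Rik (0.97), Ylpm1 (0.97) and Mast4 (0.96). These coefficients describe 7 libraries of 2 groups and carry no test. Cyp4a10, a fatty acid omega-hydroxylase, had 1.78, 2.57 and 4.87 CPM in lox/lox and 0.29, 0.24, 0.21 and 0.58 CPM in I-KO replicates 1 to 4. It passed the filter on low values through its lox/lox libraries alone, and every I-KO value lies below the filter's limit of 1 CPM. Retsat, which saturates retinol, had 123, 120.1 and 209 CPM in lox/lox and 84.5, 83.5, 90.0 and 102 CPM in I-KO. Both were highest in lox/lox replicate 3, as was Acaa1b.

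Other peroxisomal genes were read in 4 lists of 80 genes in all, of which 75 were in the table and 69 were tested. Abcd4, given above as a lysosomal transporter, is among them. By limma 0 of the 69 were called, beside 0.0299% of all genes tested. At an unadjusted p below 0.05, 11 were lower (15.9%) and 0 were higher in I-KO, and in 12 (17.4%) every I-KO library lay below every lox/lox library. The shares among all genes tested were 2.42% and 3.28%. The lists were chosen with earlier results of these data known, so these shares are a description and not an independent comparison. The median log2 fold change was -0.05.

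The list of other fatty acid oxidation genes held 7 of the 11 and 6 of the 12. Of 21 tested, 16 had a lower and 5 a higher mean in I-KO, and their median difference was -0.13 on the log2 scale. Hsdl2, a peroxisomal short-chain dehydrogenase, ranged from 33.0 to 45.7 CPM in lox/lox and was at 21.1, 24.0, 23.1 and 23.5 CPM in I-KO duodena (log2 fold change -0.69, SE 0.12, adjusted p = 0.229 from limma). Without lox/lox replicate 3 its log2 fold change was -0.55. Eci2, an isomerase that lets unsaturated chains enter the spiral, had 47.8, 52.1 and 50.4 CPM in lox/lox and 34.8, 36.6, 34.2 and 37.2 CPM in I-KO (log2 fold change -0.48, SE 0.08, adjusted p = 0.179 from limma). In both genes the I-KO libraries lay together below the lox/lox libraries.

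Crot, the carnitine octanoyltransferase that exports shortened chains, averaged 249.6 ± 41.3 CPM (SD, n = 3) in lox/lox against 179.9 ± 24.8 CPM (SD, n = 4) in I-KO duodena (log2 fold change -0.47). Its log2 fold change was -0.34 without lox/lox replicate 3 and -0.54 without the library labelled I-KO replicate 4. The thioesterases Acot4 and Acot8, which release free acids from CoA, had log2 fold changes of -0.46 and -0.25, and that of Acot4 was -0.26 without lox/lox replicate 3. The auxiliary enzymes for unsaturated chains Decr2 and Ech1 had -0.27 and -0.17, and Decr2 had -0.17 without lox/lox replicate 3. The adjusted p from limma of these 5 genes lay between 0.830 and 0.954, and the groups overlapped in Acot4 only.

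Among other membrane transporters and channels, 3 of 9 had a lower mean, with a median log2 fold change of 0.05. Pxmp4, a peroxisomal membrane protein, stood apart from the rest of that list. It had 16.5, 15.8 and 18.7 CPM in lox/lox and 10.8, 11.3, 9.90 and 12.4 CPM in I-KO (log2 fold change -0.57, SE 0.10, adjusted p = 0.230 from limma). The log2 fold changes of the other 8 lay between -0.05 and 0.08.

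Among the other biogenesis and division genes, 10 of 18 had a lower and 8 a higher mean, with log2 fold changes from -0.20 to 0.18 and a median of -0.02. Pex26, which anchors the ATPases that recycle the import receptor, had 28.0, 26.5 and 28.4 CPM in lox/lox and 23.9, 25.0, 24.1 and 22.9 CPM in I-KO (log2 fold change -0.20, SE 0.08, adjusted p = 0.954 from limma). The receptor Pex5 had a log2 fold change of -0.01.

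Of 21 tested genes of oxidant handling, ether lipids and other peroxisomal enzymes, 13 had a lower mean, with a median of -0.07. Mgst1, a membrane glutathione transferase, averaged 98.3 ± 4.39 CPM (SD, n = 3) in lox/lox against 71.8 ± 10.6 CPM (SD, n = 4) in I-KO (log2 fold change -0.46, SE 0.11, adjusted p = 0.761 from limma). Dhrs4, a carbonyl reductase, differed by -0.35 on the log2 scale (adjusted p = 0.887 from limma), and the groups did not overlap in either gene. Without lox/lox replicate 3 the log2 fold change of Dhrs4 was -0.26. Without the library labelled I-KO replicate 4 it was -0.43, and that of Mgst1 was -0.55. Catalase (Cat), which breaks down the hydrogen peroxide that oxidases release, differed by -0.20 on the log2 scale (adjusted p = 0.954 from limma), with means of 313 and 271 CPM.

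**Figure D4:**
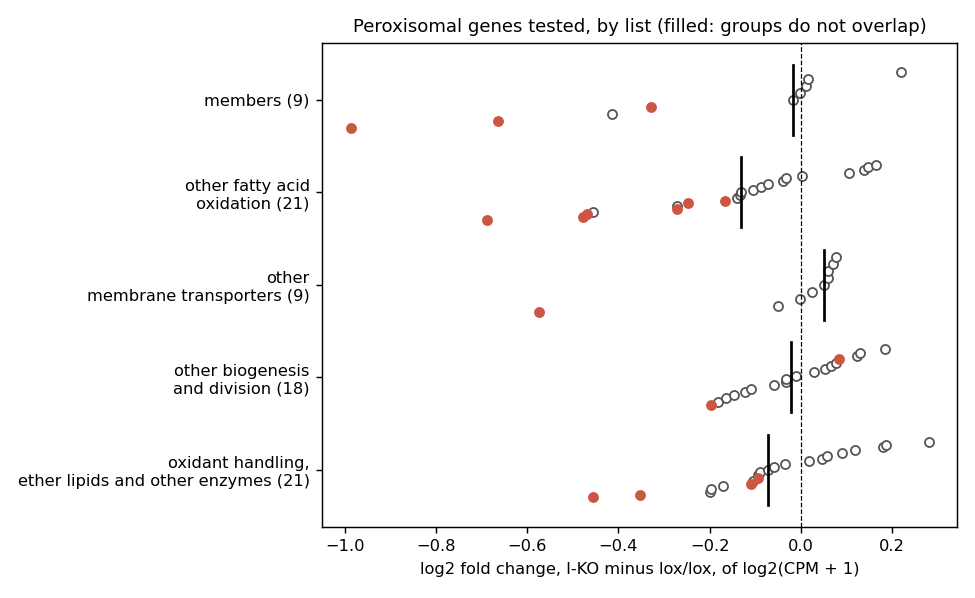
Log2 fold change of log2(CPM + 1), I-KO minus lox/lox, of each tested gene (points), by list (vertical axis, number tested in brackets), with the median as a black line; filled points are genes whose groups do not overlap. The medians lie between -0.13 and 0.05, and the lowest points are Acaa1b among the members (-0.99) and Hsdl2 among the other genes (-0.69).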

How the data were processed

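RNA-seq of 3 Ppara lox/lox and 4 Ppara I-KO duodena was analysed. The authors prepared stranded mRNA libraries read as 100-base single reads, and their processing notes name FastQC 0.11.2, TopHat2 2.0.13, Picard 1.80, HTSeq 0.6.1, edgeR and mm10. The deposited values are a signal, counts scaled to an adjusted library size (CPM), which sum to between 969589 and 1098618 a library, so they are not raw counts and no count model was fitted. Reads per library were estimated from the smallest steps of the values. In most libraries whole reads could not be recovered from enough of the values, so read numbers and counting errors are approximate. Genes above 1 CPM in at least 3 libraries were tested with limma 3.58.1 (R 4.3.3) on log2(CPM + 1), a scale that understates the changes of low genes, and the fit was tested on simulated data. Single members were compared with an exact two-sided permutation test, as were 3 ratios, of which 1 is not reported here and 1 is given without its test. The members, lists and ratios were chosen with earlier results of these data known. Named were all members, paralogs, Ppara, up to 12 other listed genes of smallest p below 0.05, and the 5 genes most like the member of largest change; Cat, Pex5 and Mff were added after their values were seen. Alternatives were other scalings, no filter, a pseudocount of 0.5, other thresholds, the replicate number as a block, an intensity trend with a robust fit and each library left out; sample quality weights were added after the data were seen. Coordinates and lengths are GRCm38, from GENCODE M21.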

Additional observations from a re-analysis of the deposited data

Results flagged for a closer look

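Of 27 quantities compared among the 4 I-KO libraries, 1 had a library whose gap to the nearest other library, divided by the range of the group, was above the 95% limit of Dixon's test for 4 samples, where about 1.35 would be expected by chance at 1 in 20. Abcd2 had 0.29 CPM in I-KO replicate 1 against 0.64 to 0.70 CPM in the remaining ones (gap over range 0.854), at a level of 4 to 17 reads a library. Abcd2 is not a member, and no member was beyond the limit.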

How the results depend on the processing

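The number of all genes called was 4, and it was 9 with an intensity trend and a robust fit, 12 with sample quality weights and 635 at an unadjusted p of 0.05, and between 3 and 5 with 1 library left out. The number of members called was 0, and it was 1 (Pex11a) both with the trend and robust fit and under sample quality weights, 3 at an unadjusted p of 0.05, and 0 with any library left out. Of the other peroxisomal genes, 11 passed at an unadjusted p of 0.05 and 0 under every alternative that adjusted p. Pex11a kept a log2 fold change of -0.66 with the trend and robust fit and had -0.61 with sample quality weights, which call it. Values near 0 turned their sign. With column totals, which move the median of all genes to -0.03, Ehhadh had -0.025 and Acaa1a -0.021. With sample quality weights Acaa1a had -0.06. With 1 library left out the log2 fold changes ran from -0.056 to 0.084 for Ehhadh, from -0.062 to 0.065 for Acaa1a, from -0.083 to 0.084 for Scp2 and from -0.034 to 0.032 for Pex19. The other members kept their sign in every alternative. The ratio of Acaa1b to Acaa1a lay between -1.24 and -0.63 with 1 library left out, and that of Ehhadh to Hsd17b4 between 0.23 and 0.60. The causes of these shifts were not tested.

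Same-numbered libraries had correlations of -0.01, 0.18 and -0.01 of their deviations from the group means, and different-numbered libraries from -0.355 to 0.283. So few correlations cannot tell whether replicate numbers pair the libraries. Only I-KO has a replicate 4, so with the replicate number as a block that library adds nothing to the genotype difference. The log2 fold changes of that fit are those without the library, -0.056 for Ehhadh and 0.0002 for Pex19. By that fit 3 genes and 0 members were called, and the adjusted p of Pex11a from limma was 0.279. The number of mice limits the precision: among the members the narrowest 95% interval, that of Pex19, ran from -0.17 to 0.17, and the widest, that of Acaa1b, from -1.48 to -0.49.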

Other observations

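Of the 69 other peroxisomal genes tested, Mff, a receptor for the fission machinery of peroxisomes and mitochondria, was the only gene in which every I-KO library lay above every lox/lox library, as in 2.91% of all genes tested. It averaged 47.5 CPM in lox/lox against 50.4 CPM in I-KO duodena (log2 fold change 0.08, adjusted p = 0.954 from limma).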
